A study of Mus musculus with 14 samples.

Results

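The data described here are the EGF response of Cic-/- neural stem cells, measured on 6 of the 14 arrays of the series. Every array labelled Cic-/- was taken: clones 5, 6 and 7, each 24 h in medium with EGF (EGF+) and 24 h in the same medium lacking it (EGF-), so that each group held 3 arrays. The cells are neonatal mouse neural stem cells from the subventricular zone at postnatal day 4, and each clone is the culture of a separate animal, exposed in culture to an adenovirus that carries Cre recombinase. The Cic+/+ cultures (clones 1 to 4, 8 arrays) received the same virus and kept Cic. The Cre acted in culture, so the cells lost Cic after they had been taken from the animal, and the labels do not say which exons the allele loses.

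Cic encodes capicua, a repressor that sits on the promoters of growth factor target genes. The EGF receptor, through RAS and the kinase ERK, lifts that repression by removing capicua from DNA and from the nucleus. Neural stem cells of the subventricular zone are grown in EGF, which keeps them dividing, and on its withdrawal such cultures leave the cycle and begin to mature into glia or neurons. In cells without capicua EGF can still act through the other branches below its receptor, and the arrays measure what it then does to RNA levels after 24 h.

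Levels are log2 values from RMA, a method that background-corrects, normalizes and summarizes Affymetrix probes, and a gene's level is the median of the probesets that name it alone. A change is the fitted log2 difference EGF+ minus EGF- ± its SE, with each clone compared with itself. The call of a gene required an adjusted p under 0.05 over 17364 genes, and only such genes are said to pass, to rise or to fall. The 14 arrays had medians from 6.488 to 6.536 and correlated with each other at 0.93 to 0.973. Genes with a mean level below 4.40 over the 14 arrays were left out as dim. The number of arrays limits the precision.

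Cic itself stayed low in Cic-/- in both media. Its level was 7.54, 7.67 and 7.40 with EGF and 7.27, 7.48 and 7.04 without in clones 5, 6 and 7. The 8 Cic+/+ arrays lay between 9.18 and 9.69, so the genotypes did not overlap. EGF changed it by 0.27 ± 0.13 in Cic-/- (adjusted p = 0.332). Among the brighter stem cell markers, Vim, Sox2, Sox9 and Fabp7 had mean levels of 13.32, 11.59, 11.43 and 13.03 over the 6 arrays. Prom1, Fut4, Id4 and Id1 were lower, at 5.16, 5.49, 5.89 and 6.25. The median level was 9.32 for the stem cell and radial glia markers, 9.45 for those of astrocytes and 8.99 for those of oligodendrocyte progenitors. The 22 stem cell and radial glia markers measured were all above the dim limit. Of the markers of other cells, 10 of 12 for microglia, 6 of 10 for endothelium and 10 of 12 for pericytes and fibroblasts exceeded that limit, with median levels of 5.04, 4.59 and 5.40. The microglia markers ran from Ptprc at 4.09 to Tmem119 at 5.98 and Cx3cr1 at 6.26. Those of endothelium ran from Emcn at 3.71 to Kdr at 5.38 and Flt1 at 8.51. Those of pericytes and fibroblasts ran from Lum at 3.76 and Dcn at 4.09 to Col1a1 at 6.68, with Pdgfra, Cspg4 and Acta2 higher still at 8.44, 9.50 and 10.20. Acta2, the smooth muscle actin, spanned 8.45 to 12.22 over the 6 arrays.

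With EGF, Cic-/- cells had more RNA of osteopontin (Spp1), of the laminin chains Lamb1 and Lama4 and of 9 of 19 p53 targets, and less of doublecortin (Dcx), of 6 of 15 genes of oligodendrocyte progenitors and of 7 of 19 of astrocytes. In all, 519 of 17364 genes passed (2.99%), of which 241 rose (1.39%) and 278 fell (1.6%). Without the clone as a block 33 passed, 17 higher and 16 lower. The median rise was 1.01 and the median fall -0.96 on the log2 scale, and 124 rises and 127 falls were at least 2-fold. All 519 moved the same way in all 3 clones, as did 36.8% of all genes. In 341 of them (65.7%) the 3 arrays with EGF did not overlap the 3 without, against 13% of all genes. The call rests on the same differences and favours genes whose clones agree, so these shares are no separate evidence.

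The clones did not contribute equally. The largest of the 3 differences came from clone 6 in 267 of the 519 genes, from clone 5 in 137 and from clone 7 in 115. Over these genes the median size of the difference was 0.935 in clone 5, 1.15 in clone 6 and 0.845 in clone 7. The count fell to 114 without clone 6, 58 higher and 56 lower, and to 225 without clone 5, 79 higher and 146 lower, and was 384 without clone 7. Across all genes, which are not independent, the differences of clones 5 and 6 correlated at 0.386, those of clones 5 and 7 at 0.29 and those of clones 6 and 7 at 0.341.

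**Figure D1:**
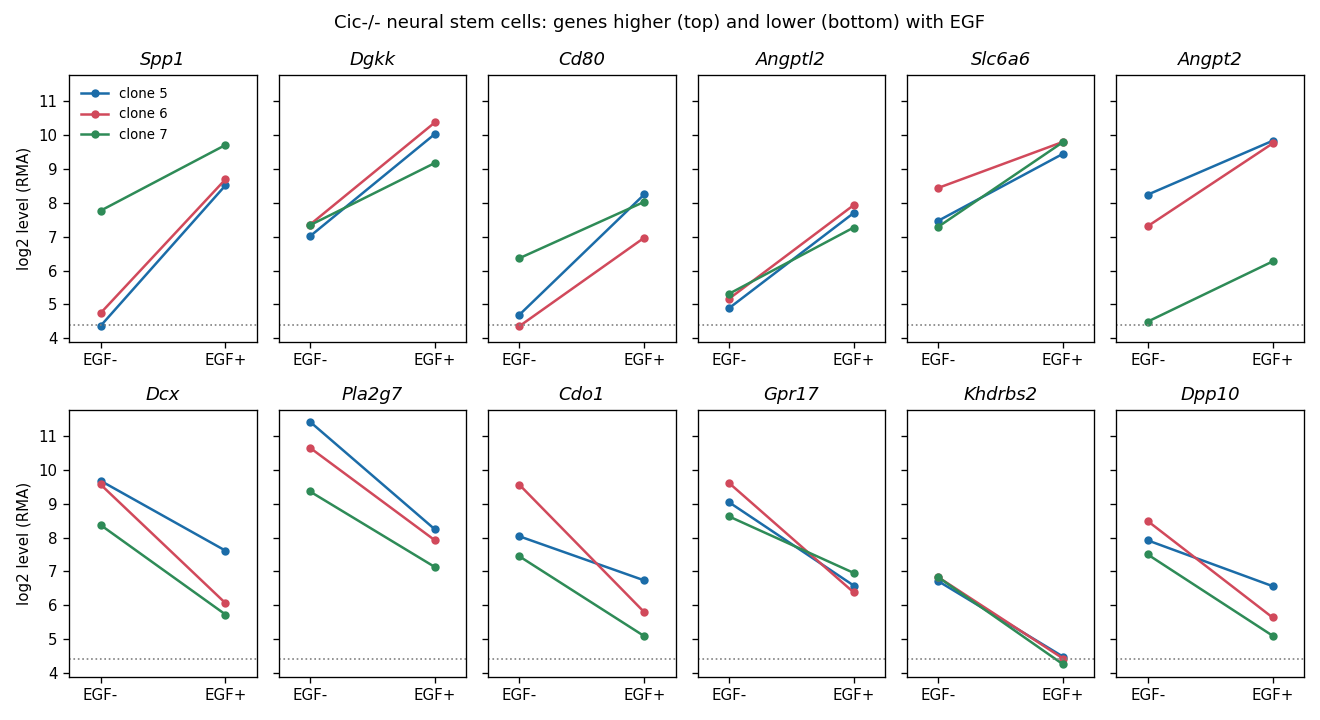
Log2 level (y axis) of 6 genes that rose (top) and 6 that fell (bottom) without EGF and with EGF; each line joins the 2 arrays of one Cic-/- clone, and the dotted line is the dim limit of 4.40. Every line of the top row rises and every line of the bottom row falls, while the starting levels of Spp1 and Angpt2 differ between clones by more than 3 on the log2 scale.

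The largest rise was that of Spp1, which encodes osteopontin, a secreted ligand of integrins and CD44. Its level was 8.52, 8.70 and 9.71 with EGF in clones 5, 6 and 7, and 4.36, 4.74 and 7.77 without. Clone 7 was high in both media, and the 3 arrays with EGF lay above the 3 without. The change was 3.35 ± 0.35, or 10.2-fold (adjusted p = 0.00146; 0.124 without the block), with 11 of 11 probesets higher. Spp1 is also known from microglia. Of the 10 microglia genes tested, 0 passed in limma, 1 was higher and 0 lower at an unadjusted p under 0.05, and the mean level of the 12 measured was 5.11 to 5.29 with EGF and 4.98 to 5.18 without. The part of such cells in the result was not tested.

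Dgkk, a diacylglycerol kinase that removes the lipid messenger diacylglycerol, was 10.04, 10.38 and 9.18 with EGF and 7.01, 7.36 and 7.34 without. Its groups lay far apart in each clone, and it rose by 2.63 ± 0.23 (adjusted p = 0.000922; 0.0151 without the block). Angptl2, a secreted angiopoietin-like protein, was 7.70, 7.93 and 7.27 with EGF and 4.88, 5.16 and 5.31 without. It rose by 2.52 ± 0.22 (adjusted p = 0.000922), and the groups again did not overlap. Cd80, known as a costimulatory ligand of T cells, was 8.25, 6.97 and 8.03 with EGF and 4.69, 4.36 and 6.36 without. It rose by 2.61 ± 0.31 (adjusted p = 0.00237), from levels near the dim limit in clones 5 and 6.

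Slc6a6, the taurine transporter, stood at 9.45, 9.80 and 9.80 with EGF against 7.47, 8.44 and 7.29 without, a rise of 1.95 ± 0.24 (adjusted p = 0.00275). Angpt2, an antagonist ligand of the receptor TIE2, stood at 9.83, 9.75 and 6.27 with EGF and at 8.24, 7.31 and 4.49 without. Within each clone it was higher with EGF, by 1.94 ± 0.26 in the fit (adjusted p = 0.00443), but clone 7 lay so far below the others that the groups overlapped, and without the block the adjusted p was 0.56. These 6 genes passed whichever of the 7 clones was left out.

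Each of the other leading rises lost its call on leaving out 1 clone or another. The lipase gene Liph was 7.85, 8.55 and 8.42 with EGF and 4.49, 4.57 and 7.56 without, and rose by 2.73 ± 0.54 (adjusted p = 0.0253). Clone 7 moved least, and the adjusted p was 0.174 without clone 6. Cemip, which binds and breaks down hyaluronan, rose by 2.46 ± 0.36 (adjusted p = 0.00626; 0.0658 without clone 6). P3h2, which hydroxylates prolines of collagen, rose by 1.96 ± 0.34 (adjusted p = 0.0142), Raet1e, a stress ligand of natural killer cells, by 2.21 ± 0.46 (adjusted p = 0.0317) and Ankrd34c by 2.13 ± 0.50 (adjusted p = 0.0481). Without clone 6 these adjusted p were 0.115, 0.19 and 0.117, and the change of Ankrd34c was 1.09. Liph and P3h2 were also lost without clone 5 (adjusted p = 0.14 and 0.0887), and Raet1e without clone 3, 4 or 5 (0.0541, 0.0524 and 0.161). Ankrd34c was lost without any 1 of clones 1 to 6 (0.0646 to 0.117). In Cic+/+ 11 of these 12 leading genes also passed, Raet1e being the exception (1.51, adjusted p = 0.0546).

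Among the falls, Dcx led. It encodes doublecortin, the microtubule protein of migrating neuroblasts. Its level was 7.62, 6.06 and 5.73 with EGF and 9.68, 9.57 and 8.37 without. Every array without EGF lay above every array with it, and the change was -2.74 ± 0.27, a 6.68-fold fall (adjusted p = 0.00127; 0.0518 without the block). With the brightest probeset the change was -1.41, and with the mean of the probesets -1.96. Pla2g7, which cleaves platelet-activating factor, was 8.24, 7.92 and 7.13 with EGF and 11.43, 10.66 and 9.36 without (-2.72 ± 0.27, adjusted p = 0.00136). Clone 7 was lowest in both media, yet the groups stayed apart.

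Khdrbs2, a splicing regulator of neural cells, showed the tightest values, at 4.48, 4.43 and 4.25 with EGF and 6.71, 6.83 and 6.83 without. It fell 5.29-fold (-2.40 ± 0.19, adjusted p = 0.000914), to the dim limit, so that the size of the fall is not exact, and with its brightest probeset in place of the median it was at -0.35 and did not pass (adjusted p = 0.51). Dpp10, a partner of Kv4 potassium channels, was 6.57, 5.64 and 5.10 with EGF and 7.92, 8.49 and 7.50 without (-2.20 ± 0.23, adjusted p = 0.00146). Tmem255b, a membrane protein, was 7.24, 7.46 and 6.93 with EGF and 9.25, 9.43 and 9.41 without (-2.15 ± 0.21, adjusted p = 0.00127). Neither of them overlapped between media.

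Cdo1, the cysteine dioxygenase that starts taurine synthesis, was 6.74, 5.80 and 5.09 with EGF and 8.04, 9.56 and 7.45 without, a 5.57-fold fall (-2.48 ± 0.36, adjusted p = 0.00626). Tuba4a, an alpha tubulin, changed by -2.03 ± 0.24 (adjusted p = 0.00237), Shisa9, an auxiliary subunit of AMPA receptors, by -2.23 ± 0.34 (adjusted p = 0.00796) and Luzp2 by -2.02 ± 0.38 (adjusted p = 0.021). Luzp2 was low in clone 5 in both media, at 4.88 and 5.30, against 7.73 and 10.32 in clone 6 and 6.50 and 9.56 in clone 7. Without clone 6, Shisa9 and Luzp2 lost their call (adjusted p = 0.055 and 0.142), and Shisa9 was at -1.24 with the brightest probeset. All 12 leading falls also passed in Cic+/+.

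Of the 41 gene lists examined, 4 had more than 5 members that passed: p53 targets, oligodendrocyte progenitors, astrocytes, and proteases with their inhibitors. In 17 lists no member passed. Over all 17364 genes the median change was 0.006, 1.39% rose and 1.6% fell, and 1427 were higher and 1535 lower at an unadjusted p under 0.05. The counts of the lists stand against these values.

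**Figure D2:**
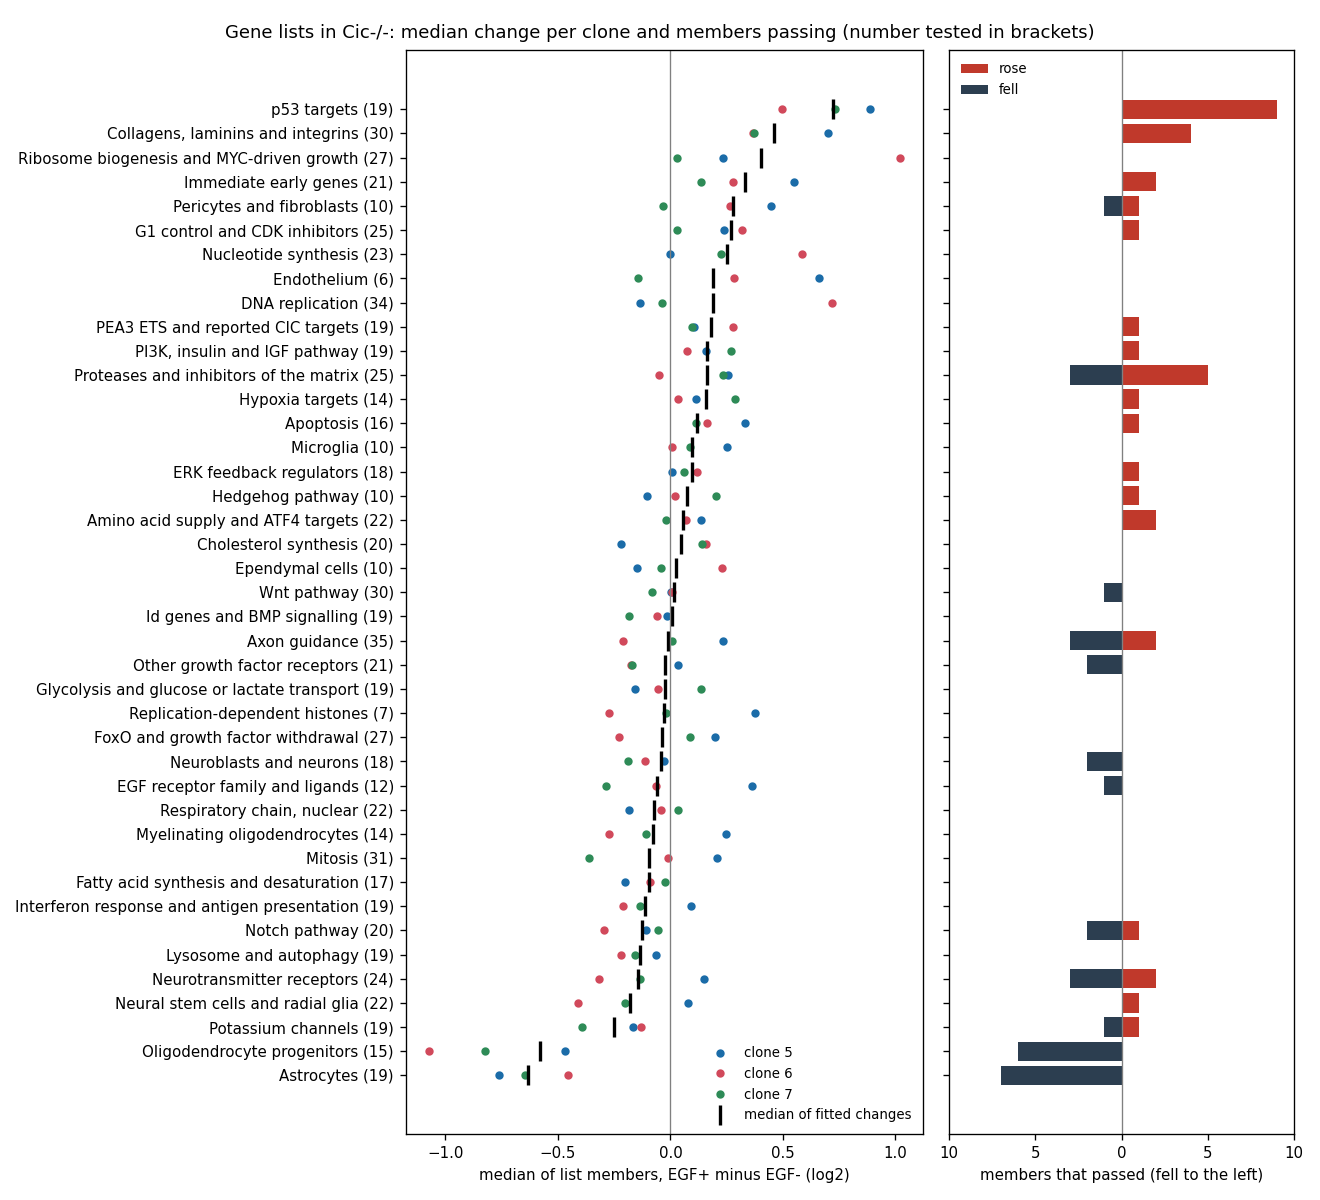
Left, the median change of each gene list (x axis, log2, EGF+ minus EGF-) in clones 5, 6 and 7 as points and over the fitted changes as a bar, with the number of genes tested in brackets; right, how many members rose (to the right) or fell (to the left). The p53 targets stand at the top with 9 rises, and oligodendrocyte progenitors and astrocytes at the bottom with 6 and 7 falls; clone 6 departs from the others in ribosome biogenesis and DNA replication.

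Target genes of p53, the transcription factor that responds to DNA damage and other stress, were higher with EGF. Of 19 tested, 9 rose and 0 fell, where 1.39% of all genes rose; 14 were higher and 0 lower at an unadjusted p under 0.05. Of the 19, 18 had a change above 0. The median change was 0.724 in the fit, and 0.885, 0.497 and 0.733 in clones 5, 6 and 7. The mean level of the list was 9.52, 9.13 and 9.27 with EGF and 8.63, 8.56 and 8.61 without, so the media did not overlap. The count was 3, 4 and 5 without clones 5, 6 and 7, 4 with the brightest probeset and 0 without the block.

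Cdkn1a encodes p21, the inhibitor of cyclin-dependent kinases that p53 induces to stop the cell cycle. Its level was 12.62, 12.39 and 12.26 with EGF and 11.37, 11.29 and 11.26 without, in clones 5, 6 and 7. The clones lay close together in each medium, and Cdkn1a rose by 1.12 ± 0.16, or 2.17-fold (adjusted p = 0.00626; 0.0518 without the block), whichever clone was left out. Tnfrsf10b, a death receptor, was 10.12, 9.53 and 9.21 with EGF and 8.84, 7.95 and 8.23 without (1.28 ± 0.17, adjusted p = 0.0046). The death receptor Fas was 8.39, 7.02 and 7.51 with EGF and 6.94, 6.54 and 6.40 without (1.01 ± 0.21, adjusted p = 0.031). Both had all 3 arrays with EGF above all 3 without.

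The other 6 rises were of mixed roles. Mdm2, the ubiquitin ligase that degrades p53, was 8.96, 9.04 and 9.37 with EGF and 8.25, 8.42 and 8.53 without (0.72 ± 0.16, adjusted p = 0.0385). Phlda3, which restrains AKT, was 10.88, 10.82 and 10.71 with EGF and 9.90, 9.89 and 10.08 without (0.85 ± 0.14, adjusted p = 0.00977). Plk2, a kinase, rose by 1.28 ± 0.19 (adjusted p = 0.00708), Trp53inp1, a p53 cofactor, by 1.01 ± 0.18 (adjusted p = 0.0161), the RNA-binding protein gene Zmat3 by 0.70 ± 0.14 (adjusted p = 0.0256) and Gtse1, which holds p53 in check in G2, by 0.97 ± 0.19 (adjusted p = 0.0238). Bbc3, which encodes the apoptosis activator PUMA, was at 0.91 ± 0.31 and did not pass (adjusted p = 0.155), with 1.48 in clone 5 and 0.50 and 0.74 in clones 6 and 7. Ei24 alone of the 19 had a change below 0, at -0.10.

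**Figure D3:**
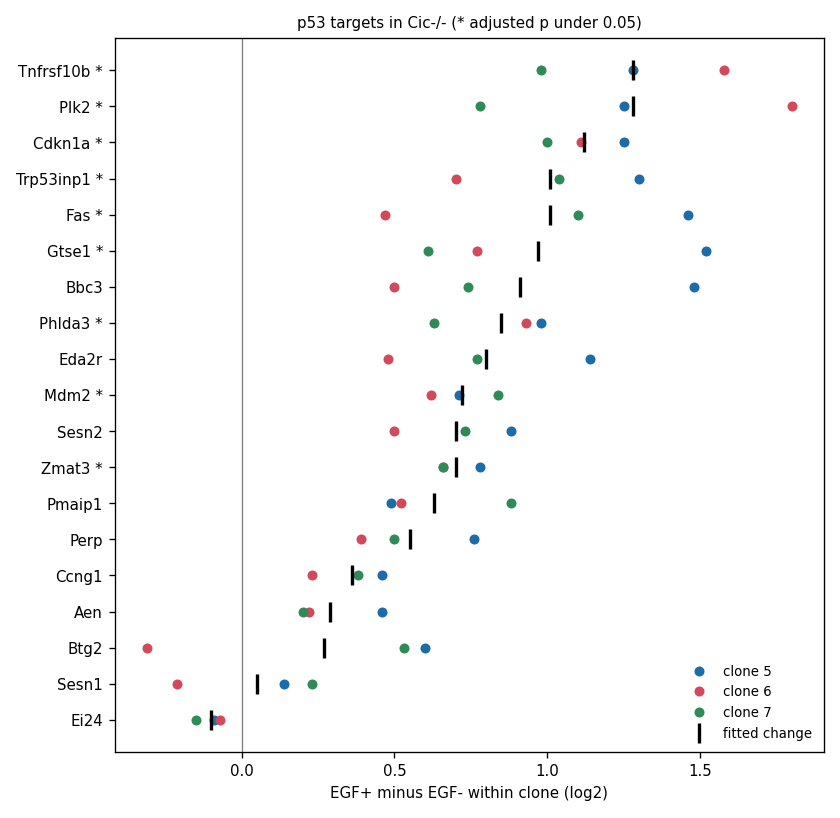
EGF+ minus EGF- (x axis, log2) of the 19 p53 targets tested, as points for clones 5, 6 and 7 and as a bar for the fitted change; an asterisk marks the 9 genes that passed. In all 9 the 3 clones lie to the right of 0, from 0.47 for Fas in clone 6 to 1.80 for Plk2 in clone 6.

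The promoter of Cdkn1a is shown because it holds a match to the p53 motif. Promoters came from RefSeq (GRCm38.p6), as the 250 bases before each listed start, and 13479 of the 17364 genes tested had one. The first search, on both strands, covered 7 motifs: AP-1 (TGACTCA), CIC (TGAATGAA or TGAATGGA), the MYC E-box (CACGTG), FOX (GTAAACA), NF1 (TTGGCA), SOX (AACAAAG) and E2F (TTGGCGC or TTCCCGC). The p53 decamer and the full p53 site (a pair of such decamers at most 13 bases apart) were added once the p53 genes had been seen, which made 9 motifs, and the promoters printed were also picked then. A full p53 site lay in 21 of 32851 start sites (0.0639%), and in 1 of the 6 rising p53 targets with a promoter. Cdkn1a has 2 listed starts, and 1 of them has it. In the window chr17:29090729-29090978 (plus strand) the capitals mark the 2 decamers, from base -73 to base -42 before the start and 12 bases apart. The stretch tgacatgttc, directly after the second decamer, misses the searched pattern only at its first base and is not marked, so the pair in capitals reflects the strict pattern:
Cdkn1a: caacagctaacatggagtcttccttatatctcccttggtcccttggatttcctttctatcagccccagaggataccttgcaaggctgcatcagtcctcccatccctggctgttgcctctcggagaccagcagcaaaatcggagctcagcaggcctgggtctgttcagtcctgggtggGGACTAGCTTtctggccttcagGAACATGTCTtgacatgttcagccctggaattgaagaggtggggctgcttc

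A single p53 decamer was common, in 9.89% of the rising genes with a promoter, 7.08% of the falling and 7.4% of all genes tested. The differences of such shares were not tested. Of the other motifs, AP-1 was in 6.59% of rising, 2.83% of falling and 4.31% of all genes, and CIC in 1.1%, 2.36% and 1.86%. The E-box was in 9.89%, 6.13% and 9.15%, FOX in 2.2%, 4.25% and 2.61%, NF1 in 11%, 14.2% and 12.6%, SOX in 5.49%, 5.66% and 4.35%, and E2F in 8.79%, 10.4% and 10.3%. A match is a stretch of letters and not a measured binding site.

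Laminins and other genes of the extracellular matrix were among the rises. Of 30 collagens, laminins and integrins tested, 4 rose and 0 fell, where 1.39% of all genes rose and 1.6% fell. At an unadjusted p under 0.05, 17 were higher and 5 lower, and the median change was 0.462, at 0.699, 0.365 and 0.370 in clones 5, 6 and 7. With the mean of the probesets in place of the median, 15 rose and 1 fell, without clone 5 or clone 6 2 rose, with the brightest probeset 2 rose, and without the block 0 passed. Lamb1, a laminin chain of basement membranes, was 9.90, 9.47 and 9.91 with EGF and 8.02, 7.95 and 8.75 without. Its groups did not overlap and it rose by 1.52 ± 0.16 (adjusted p = 0.00146), with 33 of 33 probesets higher. Lama4, the laminin chain of vascular basement membrane, was 9.65, 8.68 and 7.36 with EGF and 8.02, 7.13 and 5.74 without. It rose by nearly the same step in each clone (1.60 ± 0.17, adjusted p = 0.00146), though its clones differed so much that the groups overlapped.

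Col18a1, the precursor of endostatin, was 6.29, 6.58 and 6.02 with EGF and 5.08, 5.07 and 4.92 without (1.27 ± 0.21, adjusted p = 0.012). Itga7, a laminin-binding integrin, was 10.28, 11.28 and 11.64 with EGF and 8.72, 9.67 and 10.79 without (1.34 ± 0.23, adjusted p = 0.0136). Neither passed without clone 5 or without clone 6 (adjusted p up to 0.0972 and 0.108), and with the brightest probeset Col18a1 was at 2.33. Tnc, encoding tenascin C of the stem cell niche, was 12.40, 12.59 and 13.05 with EGF and 10.01, 10.61 and 12.12 without. It rose 3.41-fold (1.77 ± 0.28, adjusted p = 0.00977; 0.0864 without clone 6), with a change of 0.75 for its brightest probeset. It was the 1 of 22 neural stem cell and radial glia genes that passed. Of these 22, 13 had a change below 0, the median was -0.18, and at an unadjusted p under 0.05 8 were lower and 3 higher.

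Proteases of the matrix and their inhibitors moved in both directions, with 5 rises and 3 falls among 25, against 1.39% and 1.6% of all genes. Without clone 5 there were 1 rise and 2 falls, without clone 6 1 and 1, without clone 7 3 and 0, and without the block none. Adam19, a membrane metalloprotease, was 7.61, 8.84 and 8.45 with EGF and 6.08, 7.02 and 7.26 without. It was the steadiest of them (1.51 ± 0.16, adjusted p = 0.00146), and passed whichever clone was left out. The aggrecanase gene Adamts4 rose by 1.01 ± 0.16 (adjusted p = 0.0109; 0.059 without clone 6), the gelatinase gene Mmp2 by 1.01 ± 0.19 (adjusted p = 0.0223; 0.105 without clone 6; 1.58 with the brightest probeset) and Mmp15, a membrane-bound metalloprotease, by 0.60 ± 0.13 (adjusted p = 0.0397). The tissue inhibitors of metalloproteases split. Timp1 rose 5.81-fold, from 8.01, 6.87 and 10.76 without EGF to 10.96, 10.74 and 11.56 with it (2.54 ± 0.49, adjusted p = 0.0235; 0.152 without clone 6), and its groups overlapped slightly, with clone 7 high in both media. Timp3, at 10.27, 9.05 and 8.52 with EGF and 10.78, 10.77 and 10.20 without, fell in all 3 clones, by 0.51, 1.72 and 1.68 on the log2 scale (-1.30 ± 0.26, adjusted p = 0.025). Timp4 fell by 0.99 ± 0.17 (adjusted p = 0.013; 0.0955 without clone 6) and the aggrecanase gene Adamts5 by 0.90 ± 0.19 (adjusted p = 0.0298).

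The window before the Adam19 start, chr11:46055734-46055983 (plus strand, 1 of 3 listed starts), is shown as the one among the 5 rising matrix genes with a promoter that holds an AP-1 match, in capitals from base -131 to base -125. Adam19 was also the only one of these 5 with an E-box match and the only one with a FOX match, both at listed starts other than the one shown. AP-1 letters lay in 1466 of 32851 start sites (4.46%):
Adam19: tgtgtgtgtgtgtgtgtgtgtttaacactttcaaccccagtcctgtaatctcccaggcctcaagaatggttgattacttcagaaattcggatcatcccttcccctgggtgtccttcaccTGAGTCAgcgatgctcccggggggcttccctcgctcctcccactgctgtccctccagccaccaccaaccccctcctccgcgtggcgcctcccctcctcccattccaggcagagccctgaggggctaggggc

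Matrix genes are also expressed by pericytes, fibroblasts and endothelium. Of 10 pericyte and fibroblast genes tested, Anpep rose (0.74 ± 0.14, adjusted p = 0.0225) and Pdgfra fell. On leaving out clone 5, 6 or 7 Anpep no longer passed (0.124, 0.0825 and 0.0609 as adjusted p), nor with the brightest probeset, at 0.44 (adjusted p = 0.71). Acta2 was 9.07, 10.90 and 12.22 with EGF and 8.52, 8.45 and 12.05 without, higher mainly in clone 6 (1.06 ± 0.35, adjusted p = 0.143). The mean level of the 12 pericyte and fibroblast genes measured was 6.11 to 6.35 with EGF and 5.86 to 6.48 without. Of 6 endothelial genes, 0 passed in limma and 2 were higher at an unadjusted p under 0.05, with a mean of 4.98 to 5.10 with EGF and 4.62 to 5.10 without over the 10 measured. The part of such cells in the matrix genes was not tested.

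Genes of oligodendrocyte progenitors were lower with EGF. Of 15 tested, 6 fell and 0 rose, where 1.6% of all genes fell, and 15 of 15 changes were below 0, that of Olig2 barely (-0.00). At an unadjusted p under 0.05, 10 were lower and 0 higher. The median change was -0.58, and -0.466, -1.072 and -0.824 in clones 5, 6 and 7. The mean level of the list was 8.39 to 8.63 with EGF and 9.16 to 9.74 without. Without clone 6, 2 fell (Gpr17 and Pdgfra), and without the block also 2 (Gpr17 and C1ql1). In arrays of whole cultures, fewer cells of a type and less RNA per cell cannot be told apart.

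Gpr17, a receptor of committed oligodendrocyte precursors that holds back their maturation, fell furthest. Its level was 6.58, 6.38 and 6.96 with EGF and 9.05, 9.62 and 8.63 without, a 5.50-fold fall (-2.46 ± 0.24, adjusted p = 0.00127; 0.013 without the block). Pdgfra, the PDGF receptor that drives progenitor division, was 7.44, 8.40 and 6.78 with EGF and 8.56, 10.16 and 9.28 without. Clone 6 was highest in both media, the groups did not overlap, and the fall was 3.47-fold (-1.80 ± 0.25, adjusted p = 0.00532), with 17 of 17 probesets lower. Both passed whichever clone was left out, but Pdgfra did not pass without the block (adjusted p = 0.0938).

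C1ql1, a secreted synaptic organizer found in progenitors, was 8.65, 8.03 and 8.14 with EGF and 9.96, 9.87 and 9.28 without (-1.43 ± 0.23, adjusted p = 0.00977). Pcdh15, an adhesion protein, was 9.10, 8.30 and 8.01 with EGF and 9.81, 10.05 and 9.39 without (-1.28 ± 0.20, adjusted p = 0.0092; -0.73 with the brightest probeset). Sox10, the transcription factor that defines the lineage, was 5.02, 6.51 and 5.56 with EGF and 5.99, 8.05 and 6.54 without (-1.16 ± 0.21, adjusted p = 0.0179), with the starting level of clone 6 well above the others. The sialidase gene Neu4 fell too (-0.88 ± 0.18, adjusted p = 0.0265). The lineage factors Olig1 and Olig2 stayed high, at 12.39 to 12.85 and 12.03 to 12.40 over the 6 arrays, with changes of -0.16 ± 0.15 and -0.00 ± 0.15 (adjusted p = 0.651 and 0.995).

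Genes of myelinating oligodendrocytes, the mature stage, did not pass. Of 14 tested, 0 were called in limma, with 2 higher and 3 lower at an unadjusted p under 0.05, and the median change was -0.076. Mbp, the myelin basic protein, was 5.94, 5.63 and 5.09 with EGF and 5.45, 6.13 and 5.61 without (-0.18 ± 0.21, adjusted p = 0.737). Myrf, the factor that drives myelin genes, was at -0.13 ± 0.18 (adjusted p = 0.766). Mag, also tested, averaged 4.32 over the 6 arrays, below the dim limit. The list means were low in both media, at 5.57 to 5.88 with EGF and 5.67 to 5.93 without over the 15 measured.

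Of 19 astrocyte genes tested, 7 fell and 0 rose, where 1.6% of all genes fell. At an unadjusted p under 0.05, 14 were lower and 1 higher, and 16 of 19 changes were below 0. The median change was -0.632, and -0.76, -0.455 and -0.647 in clones 5, 6 and 7. With the mean of the probesets it was -0.416, and with the brightest probeset -0.22. The mean level was 8.62 to 9.20 with EGF and 9.38 to 9.87 without, with no overlap. The count was 4 without clone 5, 6 or 7 in turn, 5 without clone 2 or 3, 4 with the brightest probeset and 0 without the block.

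Aqp4, the water channel of astrocyte endfeet, was 7.13, 7.24 and 7.11 with EGF and 8.14, 9.41 and 9.09 without. Its values with EGF were nearly equal, and it fell 3.28-fold (-1.72 ± 0.22, adjusted p = 0.00301). Slc1a2, the main glutamate transporter of mature astrocytes, was 9.71, 8.55 and 7.83 with EGF and 10.69, 10.39 and 9.53 without. It fell in each clone (-1.50 ± 0.20, adjusted p = 0.00443), while the high level of clone 5 made the groups overlap. S100b, a calcium-binding protein, was 7.86, 6.50 and 5.99 with EGF and 9.05, 7.56 and 7.38 without (-1.22 ± 0.17, adjusted p = 0.00509). These 3 genes passed whichever clone was left out, but not without the block (adjusted p = 0.0758, 0.296 and 0.432 for Aqp4, Slc1a2 and S100b). Slc1a2 was at -0.88 with the brightest probeset (adjusted p = 0.0772).

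Apoe, the lipid carrier that astrocytes secrete, was 7.08, 7.06 and 7.02 with EGF and 9.42, 9.96 and 7.91 without. Its levels with EGF were nearly equal and those without it wide apart, and it fell by 2.04 ± 0.48 (adjusted p = 0.0481). The call was lost without any 1 of clones 2 to 6 (adjusted p = 0.0665 to 0.0679 without clones 2, 3 and 4, 0.194 without clone 5 and 0.259 without clone 6). Clu, a secreted chaperone, changed by -0.97 ± 0.20 (adjusted p = 0.0296), Ndrg2 by -1.24 ± 0.22 (adjusted p = 0.0174; -0.66 with the brightest probeset) and Acsbg1, an acyl-CoA synthetase, by -0.63 ± 0.14 (adjusted p = 0.0391). Gfap, the intermediate filament of reactive astrocytes, did not follow them. It was 6.43, 7.37 and 9.02 with EGF and 5.87, 6.10 and 9.47 without, higher with EGF in clones 5 and 6 and lower in clone 7 (0.46 ± 0.32, adjusted p = 0.523).

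**Figure D4:**
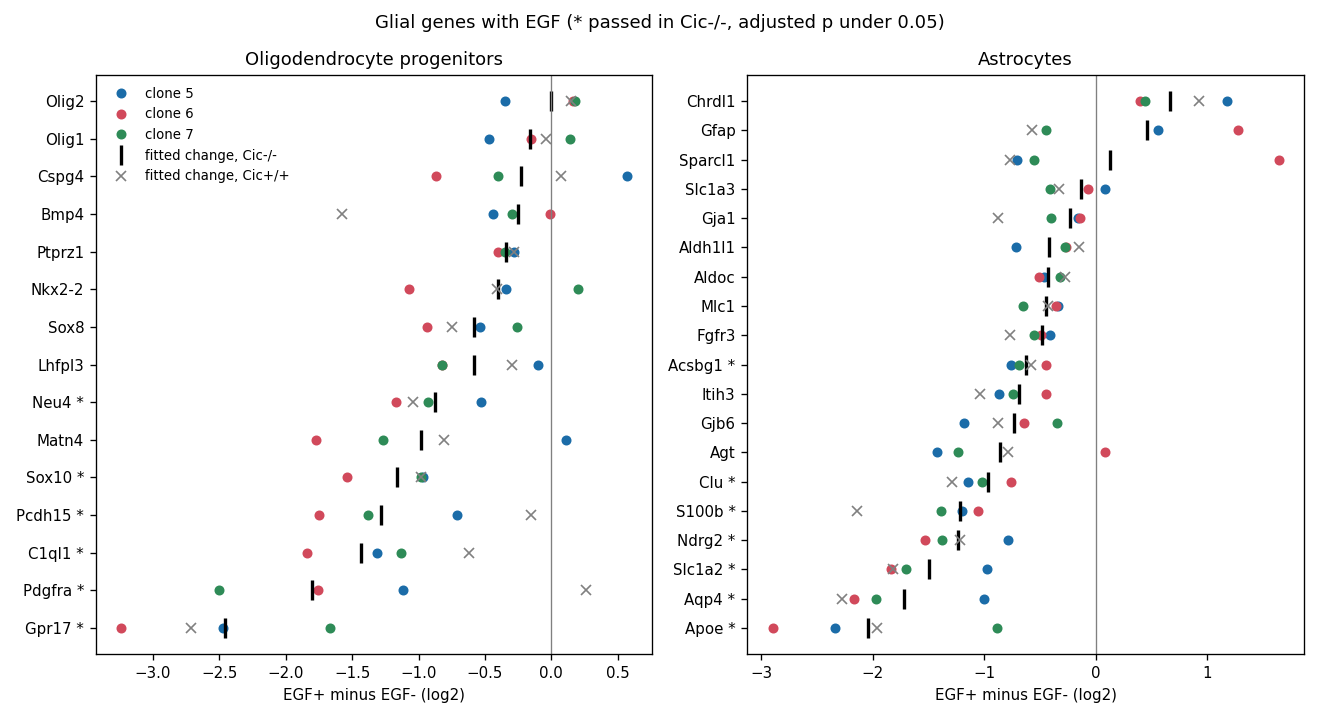
EGF+ minus EGF- (x axis, log2) of 15 oligodendrocyte progenitor genes (left) and 19 astrocyte genes (right) in clones 5, 6 and 7, with the fitted change in Cic-/- as a bar and in Cic+/+ as a cross; an asterisk marks genes that passed in Cic-/-. The fitted changes of Gpr17, Aqp4 and Apoe lie below -1.5 in both genotypes, while the cross of Pdgfra lies at 0.26 and its bar at -1.80.

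Of 18 neuroblast and neuron genes, 2 fell and 0 rose, against 1.6% and 1.39% of all genes. Besides Dcx this was Elavl3, a neuronal RNA-binding protein, at 7.86, 7.17 and 6.83 with EGF and 8.56, 8.61 and 7.72 without (-1.01 ± 0.17, adjusted p = 0.0128; 0.0942 without clone 6). The list median was -0.041, and Map2, Gad1 and Tubb3, at -0.25, -0.69 and -0.92, did not pass. In the Notch pathway, by which neighbouring stem cells restrain each other, Jag1 rose and Dll3 and Nrarp fell among 20 genes, so that 3 passed where 2.99% of all genes did. The ligand gene Jag1 was 8.26, 8.30 and 7.44 with EGF and 7.29, 7.11 and 5.77 without (1.28 ± 0.21, adjusted p = 0.0118). Dll3, a ligand-like inhibitor of the pathway, was 7.33, 6.24 and 6.46 with EGF and 9.01, 9.38 and 8.05 without (-2.14 ± 0.35, adjusted p = 0.0112). The target gene Nrarp was lower by a change of -1.28 ± 0.25 (adjusted p = 0.0232), and the target Hes5, at -1.27 ± 0.35, did not pass (adjusted p = 0.0868). Without clone 6, the adjusted p of Jag1, Dll3 and Nrarp were 0.0739, 0.0858 and 0.15.

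Signalling and guidance genes were split. The receptor tyrosine kinase gene Erbb4, a relative of the EGF receptor, was 9.75, 9.21 and 8.19 with EGF and 10.53, 10.71 and 10.14 without. It fell 2.66-fold (-1.41 ± 0.20, adjusted p = 0.00609; 0.057 without clone 6; -0.80 with the brightest probeset), the 1 of 12 EGF receptor family and ligand genes that passed. Egfr itself was at -0.23 ± 0.17 (adjusted p = 0.538). Of 35 axon guidance genes 2 rose and 3 fell, against 1.39% and 1.6% of all genes. Sema3c, a secreted semaphorin, was 7.78, 7.64 and 9.07 with EGF and 5.63, 5.58 and 7.96 without (1.77 ± 0.20, adjusted p = 0.00169; 0.463 without the block; 0.107 with the clone as a random block). Unc5c, a netrin receptor, was 6.85, 6.62 and 6.58 with EGF and 8.06, 7.96 and 8.12 without. It gave one of the cleanest separations (-1.36 ± 0.15, adjusted p = 0.00146; 0.00419 without the block). Sema3a rose by 1.10 ± 0.22 (adjusted p = 0.0253), and the receptor gene Plxnb1 fell by 0.85 ± 0.17 (adjusted p = 0.0292), as did Sema4d by 0.65 ± 0.14 (adjusted p = 0.0397). Without clone 5 or clone 6 neither Sema3a nor Plxnb1 passed (adjusted p up to 0.124 and 0.175).

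Among 24 neurotransmitter receptor genes 2 rose and 3 fell, against 1.39% and 1.6% of all genes. Chrm3, a muscarinic acetylcholine receptor, was 8.67, 8.96 and 8.61 with EGF and 7.31, 6.96 and 7.29 without (1.56 ± 0.22, adjusted p = 0.00532; 0.0486 without the block; 0.0567 without clone 6). The GABA receptor subunit gene Gabra2 passed as well, from 8.19, 6.99 and 5.94 without EGF to 9.35, 8.58 and 6.93 with it (adjusted p = 0.0121; 0.1 without clone 6). The 3 that fell encode glutamate receptors. Grm3 was 8.77, 9.04 and 6.60 with EGF and 9.89, 10.73 and 8.53 without (-1.58 ± 0.17, adjusted p = 0.00146). Grin3a was 8.32, 8.22 and 7.62 with EGF and 9.84, 9.93 and 8.89 without (-1.50 ± 0.17, adjusted p = 0.00188), and Grm5 fell by 0.85 ± 0.19 (adjusted p = 0.0397). Grm3 and Grin3a passed whichever clone was left out, but not without the block (adjusted p = 0.504 and 0.112). With the clone as a random block Grm3 did not pass either (0.122).

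Of 18 feedback regulators of ERK, Spry4 rose after 24 h and none fell, where 2.99% of all genes passed. At an unadjusted p under 0.05, 4 of the 18 were higher and 3 lower, beside 1427 higher and 1535 lower of all 17364 genes. The level of Spry4 was 11.31, 11.84 and 11.72 with EGF and 10.74, 10.23 and 11.04 without (adjusted p = 0.0392). Leaving out any clone but clone 1 ended the call (adjusted p up to 0.209, without clone 6). Dusp6, the ERK phosphatase, was 10.67, 11.44 and 11.45 with EGF and 9.98, 9.91 and 11.51 without (0.72 ± 0.25, adjusted p = 0.17). Clone 7 held its Dusp6 level without EGF. Of 19 PEA3 ETS and reported CIC target genes, a list drawn from other systems, Spry4 was again the only one that passed. At an unadjusted p under 0.05, 6 of the 19 were higher and 2 lower. Etv4 and Etv5 were at -0.16 ± 0.21 and 0.19 ± 0.13 (adjusted p = 0.758 and 0.501). Etv1 lay lower with EGF in each clone, at 8.24, 7.79 and 8.08 against 9.42, 9.11 and 8.85, without passing (-1.09 ± 0.28, adjusted p = 0.067). That size depended on the median of its probesets: it was -0.17 with their mean and -0.07 with the brightest. Etv1 passed in 4 other settings, among them the fit without clone 4 (adjusted p = 0.0164).

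Of 21 immediate early genes, which answer growth factors within minutes, Egr3 and Arc rose and none fell, where 1.39% of all genes rose. At an unadjusted p under 0.05, 7 were higher and 1 lower, and 15 of 21 changes were above 0. The median change was 0.33, at 0.548, 0.279 and 0.136 in clones 5, 6 and 7. Egr3 was 7.97, 8.47 and 7.66 with EGF and 6.49, 6.82 and 7.47 without (1.11 ± 0.25, adjusted p = 0.0413). Arc was 8.21, 9.02 and 7.97 with EGF and 6.79, 6.45 and 7.64 without (1.44 ± 0.34, adjusted p = 0.048). Both rose least in clone 7, and both lost their call without any 1 of clones 1 to 6 (adjusted p up to 0.236). With the brightest probeset the change of Egr3 was 0.26 (adjusted p = 0.707) and that of Arc 0.10 (adjusted p = 0.831). Fos and Egr1 were at -0.53 ± 0.35 and -0.15 ± 0.14 (adjusted p = 0.506 and 0.667).

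Among genes of DNA replication and mitosis no member passed, and the clones disagreed. Of 34 DNA replication genes 0 passed in limma, with 5 higher and 0 lower at an unadjusted p under 0.05. Their median change was 0.188 in the fit, and 0.717 in clone 6 against -0.136 and -0.037 in clones 5 and 7. Mcm2, a subunit of the replicative helicase, was 6.72, 8.97 and 8.91 with EGF and 7.26, 7.56 and 8.66 without. Of 31 mitosis genes 0 passed, and 0 also at an unadjusted p under 0.05. Their median was -0.094, at 0.205, -0.009 and -0.363 in clones 5, 6 and 7. The proliferation marker Mki67 was 8.77, 10.29 and 9.86 with EGF and 8.98, 10.34 and 10.29 without. The clone differed more than the medium: clone 5 had a mean mitosis level of 7.48 with EGF and 7.27 without, against 8.57 to 8.92 in clones 6 and 7.

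In growth genes clone 6 again stood apart. Of 27 ribosome biogenesis and MYC-driven genes 0 passed, with 8 higher and 0 lower at an unadjusted p under 0.05, and 25 of 27 changes were above 0. The median was 0.402, made of 1.019 in clone 6 against 0.234 and 0.031 in clones 5 and 7. Myc was 9.25, 10.13 and 9.97 with EGF and 8.96, 8.99 and 9.54 without (0.62 ± 0.18, adjusted p = 0.107). Ccnd1, the D-type cyclin of G1 entry, was 11.99, 12.66 and 12.83 with EGF and 10.60, 11.08 and 12.47 without. It lay just outside the threshold (1.11 ± 0.27, adjusted p = 0.0576), with clone 7 again moving least.

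The response was then set beside that of Cic+/+, which was measured on other arrays in 4 clones. In Cic+/+ 969 genes passed (5.58%), 399 higher (2.3%) and 570 lower (3.28%), and 285, 365 and 386 without clones 2, 3 and 4, and 156 without the block. Of the 969, 308 passed in both genotypes with the same sign, which is 59.3% of the Cic-/- genes and 31.8% of the Cic+/+ genes, and 0 passed with opposite signs. Of the 519 genes, 497 (95.8%) had the same sign in the Cic+/+ fit, against 67.6% of all genes. Across genes, which are not independent, the effects correlated at 0.634 (Spearman 0.517).

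**Figure D5:**
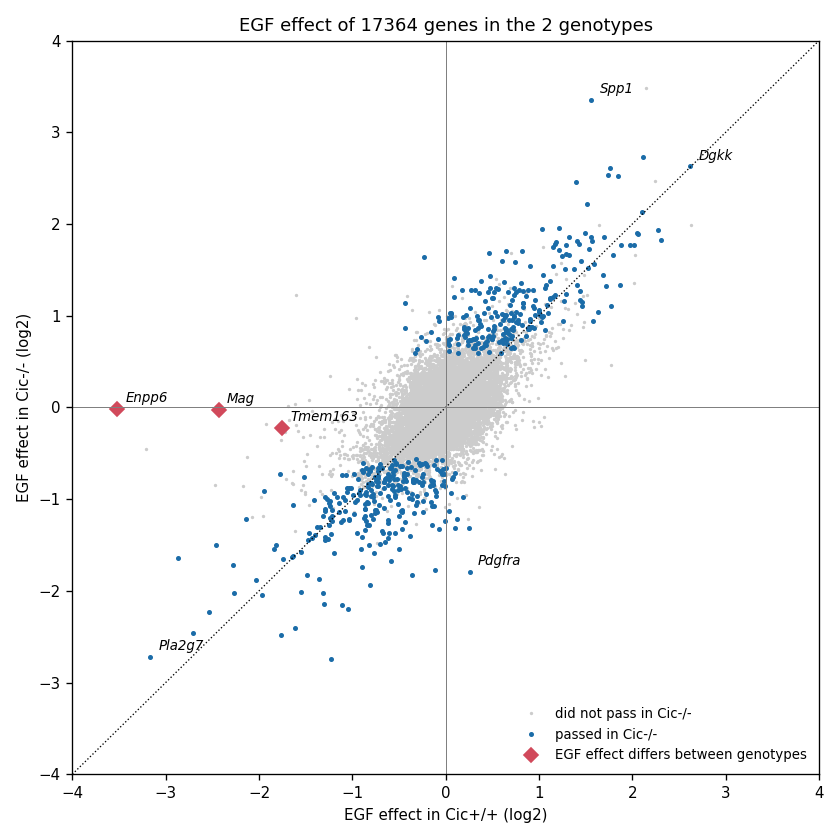
EGF effect (log2) of each of 17364 genes in Cic+/+ (x axis) and in Cic-/- (y axis), with the 519 genes that passed in Cic-/- in blue and the 3 whose effect differed between genotypes as red diamonds; the dotted line marks equal effects. Most blue points lie near the diagonal, while Enpp6, Mag and Tmem163 lie far to the left at an effect near 0 in Cic-/-.

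The difference between the genotypes passed for 3 genes (0.0173%), and for 0 of the 519, of which 164 had an unadjusted p under 0.05. Over all 17364 genes 1105 had such a p. The 519 were picked by their effect in Cic-/-, which is part of the difference, so the 164 are not an independent count. Enpp6, a choline phosphodiesterase of newly formed oligodendrocytes, was 4.32, 4.55 and 4.76 with EGF and 4.00, 4.85 and 4.83 without in Cic-/-, near the dim limit in both media. In Cic+/+ it lay at 4.70 to 5.21 with EGF and 8.34 to 8.67 without, and the effects differed by 3.50 (adjusted p = 0.000309). Mag, a myelin adhesion protein, was 4.37, 4.37 and 4.17 with EGF and 4.54, 4.56 and 3.88 without in Cic-/-, against 4.07 to 5.11 and 6.48 to 7.45 in Cic+/+, a difference of 2.41 (adjusted p = 0.000744). With the brightest probeset the differences were 2.58 for Enpp6 and 2.13 for Mag and neither passed (adjusted p = 0.387 for both), and Mag was at 0.0874 without the block. Tmem163, a zinc transporter, was 5.70, 5.66 and 5.78 with EGF and 6.07, 5.72 and 6.02 without in Cic-/-, against 5.581 to 6.294 and 7.477 to 7.997 in Cic+/+. Its difference of 1.53 (adjusted p = 0.049) was lost on leaving out any 1 clone (adjusted p up to 0.198, without clone 6), and it was -0.19 with the brightest probeset.

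Pdgfra showed the reverse arrangement without passing. In Cic+/+ it lay at 9.81 to 10.34 with EGF and 9.32 to 10.15 without, a change of 0.26. In Cic-/- it fell by 1.80, and the difference of -2.05 had an adjusted p of 0.121. The difference passed with the mean of the probesets (adjusted p = 0.0336) and with a trended robust prior. With the brightest probeset (0.387), without the block and on leaving out any clone (0.0791 to 0.395) it did not pass. Of the myelinating oligodendrocyte genes, 7 fell in Cic+/+ and 0 of 14 in Cic-/-, and the difference passed for Enpp6 and Mag, with 7 of 14 at an unadjusted p under 0.05. Of all 17364 genes, 1105 had such a p for the difference, 492 of them with a difference below 0. In Cic-/- Mag averaged 4.32, below the dim limit, and entered the test only through Cic+/+. Enpp6, Mal, Opalin, Mog and Mobp averaged 4.55, 4.78, 5.09, 5.15 and 5.23 there, so a fall of these genes could not have been measured in full. Cldn11, Bcas1 and Cnp lay higher, at 6.94, 7.10 and 8.29. Of the p53 targets, 6 rose in Cic+/+ with a list median of 0.365 against 0.724 in Cic-/-, and the difference passed for 0 of 19, with 1 at an unadjusted p under 0.05. For mitosis genes the median was 0.393 in Cic+/+ and -0.094 in Cic-/-. The difference was lower at an unadjusted p under 0.05 in 9 of 31 of them and passed in 0.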

How the data were processed

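The 14 arrays were analysed from the probeset values the authors deposited, which are RMA output on the log2 scale per the submitters' processing notes; its version and the annotation build were not given in the sources used here. Of 269751 probesets, 233753 name 1 gene and gave 23152 genes by their median. Gene names were updated through RefSeq (GRCm38.p6). Genes in the lowest 25% by mean level (below 4.40) were left out, and 17364 stayed.

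Genes were tested with limma 3.58.1 (R 4.3.3) over all 14 arrays, with a term for each clone and an EGF term for each genotype (5 residual and 5.59 prior degrees of freedom), with Benjamini-Hochberg adjustment of p-values over all genes. The labels give both arrays of a clone to the culture of 1 animal. Their deviations from group means correlated at 0.474, 0.323, 0.459, 0.337, 0.584, 0.156 and 0.616 for clones 1 to 7. The highest value of each EGF+ array with the EGF- array of another clone of its genotype was -0.161, -0.0731, 0.00107, -0.0386, 0.163, 0.12 and -0.307. For clone 6 the 2 values, 0.156 and 0.12, were close. Members, gene lists and the choice of the block were made with earlier results of these data known, and so support nothing by themselves. No test was made over a list.

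Named are the 12 largest rises and falls among passing genes with all clones and at least 70% of at least 2 probesets agreeing and the higher mean above the dim limit, up to 4 passing and 2 other members of each list, a few genes fixed by name, and the genes of the genotype difference under the same probeset and level conditions. Other genes were chosen after their values were seen. The procedure was tested on simulated data. Python 3.11.15, pandas 2.3.3, matplotlib 3.10.9 and data.table (version 1.17.8) served for tables and figures. The alternatives were the mean or brightest probeset, no dim filter or one at 50%, centring, quantile normalization, a trended robust prior, no block or a random one, only the Cic-/- arrays, a 1.5-fold minimum, and leaving out each clone.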

Additional observations from a re-analysis of the deposited data

Results flagged for a closer look

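The EGF effect differed between Cic-/- and Cic+/+ in 3 genes, by the test of the difference itself. For Enpp6 the effect in Cic-/- minus that in Cic+/+ was 3.50, for Mag 2.41 and for Tmem163 1.53 on the log2 scale, because each was lower with EGF in the 4 Cic+/+ clones (-3.52, -2.43 and -1.75) and close to 0 in Cic-/- (-0.02, -0.03 and -0.22). In Cic-/- the levels of Enpp6 and Mag lay close to the dim limit in both media, so a fall there could not have been measured in full. Mag, with a mean of 4.32 in Cic-/-, entered the test only through its level in Cic+/+.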

How the results depend on the processing

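The count of 519 genes changed by EGF in Cic-/- rests on comparing each clone with itself. Without the replicate block 33 passed, with the Cic-/- arrays alone 176, with the mean of the probesets 1019 and with the brightest probeset 245. Leaving out 1 clone gave 114 to 544. The random block, filter, prior, scaling and 1.5-fold settings gave 361 to 770 genes, within 1.5 times. In Cic+/+ the count of 969 became 156 without the block and 1665 with the mean of the probesets, and 285 to 1066 on leaving out 1 clone. The 3 genes whose effect differed became 1 without the block, 7 with a random block, 10 with the mean of the probesets, 0 with the brightest (limma) and 8 with a trended robust prior, and 2 to 5 on leaving out 1 clone. Tmem163 turned to -0.19 with the brightest probeset. Of 70 named genes that passed in Cic-/-, 27 passed whichever clone was left out and 11 without the block; 42 lost their call without clone 6 and 28 without clone 5. The causes were not tested. Genes near the dim limit have no exact fold.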

Other observations

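Other groups changed in single members in Cic-/-. Among 22 amino acid supply and ATF4 target genes, the glutamine transporters Slc1a5 and Slc38a2 rose (0.87 ± 0.16 and 0.74 ± 0.14, adjusted p = 0.022 and 0.0209), with Slc1a5 going from 6.35, 5.87 and 6.69 to 7.02, 6.97 and 7.52 in clones 5, 6 and 7. With the brightest probeset the change of Slc1a5 was 0.51. Igfbp3, which binds insulin-like growth factors, was 12.28, 12.33 and 12.43 with EGF and 10.73, 9.60 and 11.73 without (1.66 ± 0.33, adjusted p = 0.0265; 0.152 without clone 6). Casp8, the initiator caspase below death receptors, was 8.49, 8.93 and 8.49 with EGF and 6.55, 6.94 and 7.80 without (1.54 ± 0.26, adjusted p = 0.0133; 0.108 without clone 6). The potassium channel gene Kcnk2 rose (1.03 ± 0.20, adjusted p = 0.0217) and Kcnk1 fell (-0.95 ± 0.19, adjusted p = 0.0271). Kit, the stem cell factor receptor, fell too (-0.97 ± 0.23, adjusted p = 0.0478), as did the Wnt receptor ligase gene Rnf43 (-0.78 ± 0.15, adjusted p = 0.0255; -0.51 with the brightest probeset), while the Hedgehog co-receptor gene Cdon rose (0.85 ± 0.17, adjusted p = 0.0265). Kit lost its call without any 1 of clones 3 to 7 (adjusted p up to 0.189, without clone 7), and the other genes named here without clone 6, except Kcnk1, which lost it without clones 5 and 7.

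Probesets that name no gene or several genes were tested apart. Of 21444 above the dim limit, 0 were higher and 0 lower with EGF in Cic-/- by limma, with 2326 at an unadjusted p under 0.05. Tested each on its own, 175315 probesets that name 1 gene gave 344 higher and 418 lower.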
